A study of Equus caballus with 28 samples.

Results

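Yolk sac (YS) fluid, drawn from inside the conceptus, was compared with the uterine fluid (UF) that surrounded the same conceptus in the pregnant mare. The comparison held the 10 libraries that the labels name as yolk sac or uterine fluid of a pregnant cycle, 5 of each, out of 28 miRNA libraries in the series. The study sampled reproductively sound Warmblood mares 13 days after ovulation, in a pregnant cycle after insemination with fresh semen of 1 stallion and in an unbred control cycle. Besides both fluids, embryonic tissue and endometrial biopsies were sequenced. UF was taken up by an intra-uterine tampon, from which it was recovered with sterile water and centrifugation, whereas YS fluid was aspirated from the flushed embryo with a needle. RNA of both fluids was isolated with the same serum and plasma kit. All 10 libraries came from untreated pregnant cycles apart from the hCG given to every mare before ovulation, and the 5 animals of each group were the same mares. The labels call the first group yolk sac, and that the material was fluid comes from the extraction protocol and the sampling methods. Type of fluid and way of collection cannot be told apart in this design.

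A miRNA is a short RNA that lowers the output of mRNAs matching its seed, the bases near its 5′ end, and miRNAs that share a seed are grouped into families. Many are transcribed as clusters from one precursor. Outside cells they persist in fluids inside vesicles or bound to proteins, so the miRNAs of a body fluid reflect in part the cells around it. The miR-302/miR-367 and miR-371/miR-372 clusters are known from pluripotent and early embryonic cells, let-7 accumulates as cells differentiate, and the miR-34/miR-449 family is abundant in multiciliated epithelium such as that lining the uterus.

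The fluids differed in depth. YS fluids 1 to 5 held 7585, 14455, 13066, 4352 and 14531 miRNA reads, and pregnant UF 1 to 5 held 134734, 119492, 152860, 82985 and 79173. A floor of 3 reads equalled 206 to 689 CPM (reads per 1000000 reads of the library) in YS fluid against 19.6 to 37.9 CPM in UF, and intervals and floors cover counting error only. Of 844 known and predicted miRNAs in the tables, 444 had a read in the 10 libraries. Of these, 306 were read in both fluids, 42 in YS fluid only and 96 in UF only. A total of 277 miRNAs, 196 known and 81 predicted, reached 1 CPM in at least 5 libraries and were tested. No 2 libraries of a group agreed within sampling noise.

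YS fluids 2 and 4 stood apart. YS fluid 2 gave 22.7% of its reads to miR-371-5p and miR-372, which took 0.592% to 2.23% in the other 4, and also carried most reads of the imprinted DLK1-DIO3 locus. YS fluid 4, the shallowest library, gave 11.6% of its reads to let-7 against 1.16% to 3.39% in the other YS fluids. In the comparison of the fluids, calls of named miRNAs and counts of a family that changed without YS fluid 2 or YS fluid 4 are given both ways.

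The size of a difference also depended on how the libraries were put on a common scale. Factors of the TMM method, which assumes that most miRNAs do not differ, lay between 1.32 and 2.37 for YS fluid and between 0.488 and 0.592 for UF. The median log2 fold change of YS fluid over UF across the 277 miRNAs was -0.54 with TMM, 0.14 with RLE, 0.17 with DESeq2, 0.30 with upper quartile factors and 1.14 with library totals alone. Relative to TMM the other scalings thus moved this median up by 0.68 to 1.68. Fold changes below are edgeR estimates on the TMM scale with their standard error (SE) unless said otherwise, and a call in each scaling means a call in the same direction with all 5. For 6 miRNAs, among them miR-371-5p, miR-372, miR-380 and miR-409-3p, DESeq2 gave no adjusted p and the other 4 scalings decided.

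Of the 277 miRNAs, 165 (59.6%) were called, which required a fold change of 2 or more and a false discovery rate (FDR) not above 0.05. YS fluid was higher for 65 (23.5%) and lower for 100 (36.1%). The split was 87 higher and 78 lower with RLE factors, 89 and 76 with upper quartile factors, 75 and 70 with DESeq2, and 114 and 52 with library totals alone. In each scaling, 117 miRNAs (42.2%) were called, all 65 that were higher (23.5%) and 52 of those that were lower (18.8%). Without YS fluid 2 the counts in each scaling were 60 higher, of which 54 were among the 65, and 55 lower, which included all 52. Without YS fluid 4 they were 70 higher, 61 of them shared, and 51 lower, all shared. The biological coefficient of variation between libraries of a group was 57.0%.

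**Figure D1:**
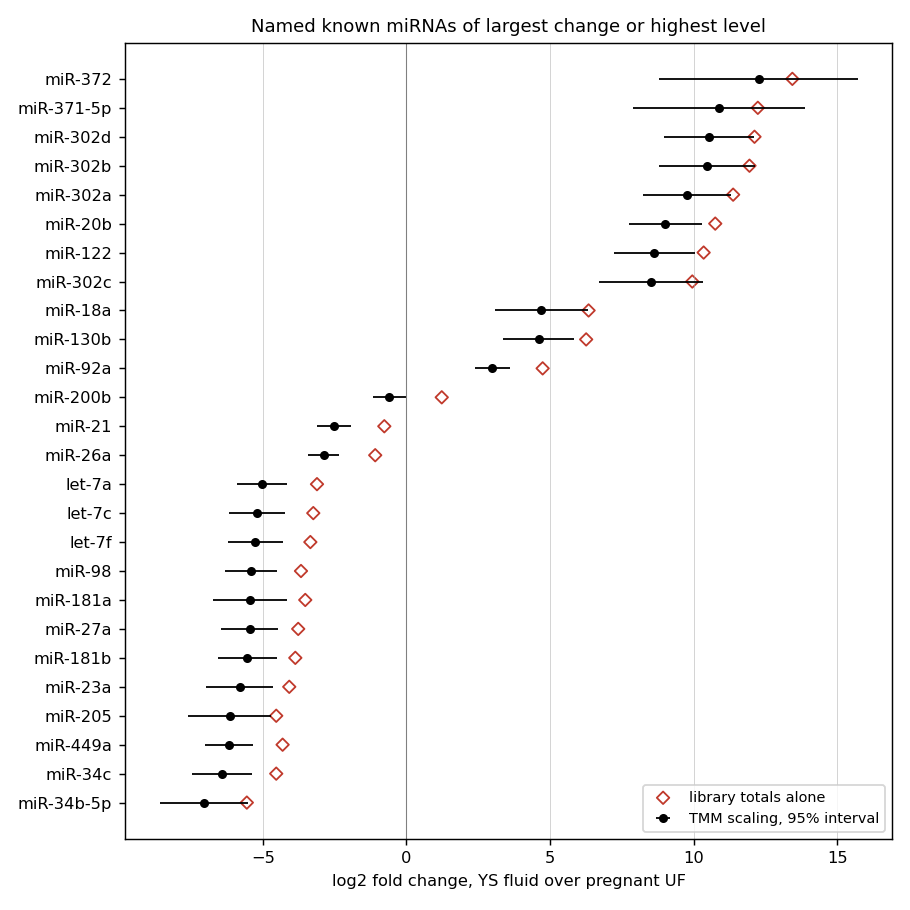
log2 fold changes (YS fluid over pregnant UF, horizontal axis) of the known miRNAs with the largest differences or the highest levels. Filled points are TMM estimates with bars for the 95% interval, and open diamonds are estimates from library totals alone; all diamonds lie to the right, and the only miRNA whose diamond and point lie on opposite sides of 0 is miR-200b (-0.59 and 1.23).

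The miR-302/miR-367 cluster, whose members act in pluripotent cells, was present in all 5 YS fluids and nearly absent from UF. miR-302d, the most read member, had 134, 238, 387, 27 and 201 reads in YS fluids 1 to 5 and 0, 0, 0, 1 and 0 in UF. miR-302b had 76, 131, 146, 13 and 81 reads in YS fluid and none in 569244 UF reads. The groups did not overlap for either miRNA, as held in plain CPM for 46.6% of all miRNAs tested. All 5 members tested were higher in YS fluid in each scaling, against 23.5% of all miRNAs. Their median log2 fold change was 9.76 (8.90 with the 3 members without UF reads at their bound) beside -0.54 over all miRNAs. Those 3 could not have come out lower. All 5 members passed the filter only through YS fluid, as miR-302a and miR-302d had 1 UF read each. The count of calls is therefore no independent support. miR-302d reached 10.53 ± 0.80 (FDR 4.98e-08), and its pooled share of reads was 10407 times that in UF (exact 95% interval 1863 to 411451). Set against 3 reads over the 5 UF libraries and scaled by library totals, miR-302b was at least 1571-fold and miR-302c at least 408-fold higher. miR-367, processed from the same precursor, had only 6 reads in YS fluid. The cluster held 1.42% to 6.25% of YS fluid reads and 0.681% to 3.04% of the reads of embryonic tissue, but at most 2.96e-04% in pregnant endometrium. In such bulk libraries, fewer cells of a type and less RNA per cell cannot be told apart.

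miR-371-5p and miR-372, also characteristic of early embryonic cells, had the largest fold changes with all libraries. miR-372 had 62, 1220, 69, 36 and 33 reads in YS fluids 1 to 5 and 0 in each UF, and was at least 4991-fold higher on library totals, or at least 959.9-fold without YS fluid 2, which held most of its reads. miR-371-5p had 95, 2065, 49, 61 and 53 reads in YS fluid and 0, 1, 0, 0 and 2 in UF, a log2 fold change of 10.88 ± 1.52 (edgeR FDR 1.65e-05). YS fluid 2 was far above the other YS fluids in both, and the 4 others still lay above every UF library. Without YS fluid 2 both were again called, but miR-371-5p fell to 8.24 on the log2 scale and to place 8 in the order of fold changes, which miR-302d (10.47) then led. The embryo with the same number did not stand apart in the same way, with 77 reads of miR-371-5p where the 5 embryos had 39 to 623, and 393 of miR-372 where the highest had 605.

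The miR-17-92 cluster and its paralogs, growth-promoting miRNAs long studied in development and cancer, filled much of the YS fluid profile. Their summed share was 27.1%, 24.1%, 32.9%, 28.8% and 39.5% of reads in YS fluids 1 to 5 and 1.60% to 1.82% in UF. Of 12 members tested, 8 were higher in YS fluid in each scaling, none was lower and 4 were not called, where 23.5% of all miRNAs were higher. The median log2 fold change of the 12 was 2.51. miR-92a, the most abundant miRNA of YS fluid, had 1424, 2539, 2791, 1035 and 4552 reads there against 1513, 955, 827, 738 and 705 in UF. This was 22.6% ± 5.46 of YS fluid reads and 0.849% ± 0.210 of UF reads (SD, n = 5 each), a log2 fold change of 2.99 ± 0.31 by edgeR (FDR 8.60e-07).

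Members of this family had unlike values, within a precursor as well as between precursors. Log2 fold changes ran from 0.38 to 4.69 in the miR-17-92 precursor, where 1 of 6 tested members was not called. In the paralog cluster of miR-363 they ran from 2.03 to 9.01, and miR-19b and miR-92a are encoded in both. miR-20b, encoded with miR-363 and miR-106a in the paralog cluster, had 156, 186, 374, 57 and 250 reads in YS fluid but 2, 2, 0, 1 and 0 in UF, a log2 fold change of 9.01 ± 0.64. miR-363 followed at 5.12 ± 0.85 and miR-18a at 4.69 ± 0.82. miR-106a and miR-17, which differ little in sequence and had near-equal counts in every library, stood at 3.24 ± 0.43 and 3.22 ± 0.42 and cannot be counted as separate observations. In contrast, the 3 members of the miR-106b/miR-25 precursor were not called: miR-25 was at 0.25 ± 0.31, miR-93 at 0.33 ± 0.36 and miR-106b at -0.99 ± 0.59. Without YS fluid 2, miR-20a (log2 fold change 0.90) was no longer called and miR-106b (-1.58) was called lower, so that 7 members were higher and 1 lower, and without YS fluid 4 a total of 9 of 13 tested were higher and none lower.

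**Figure D2:**
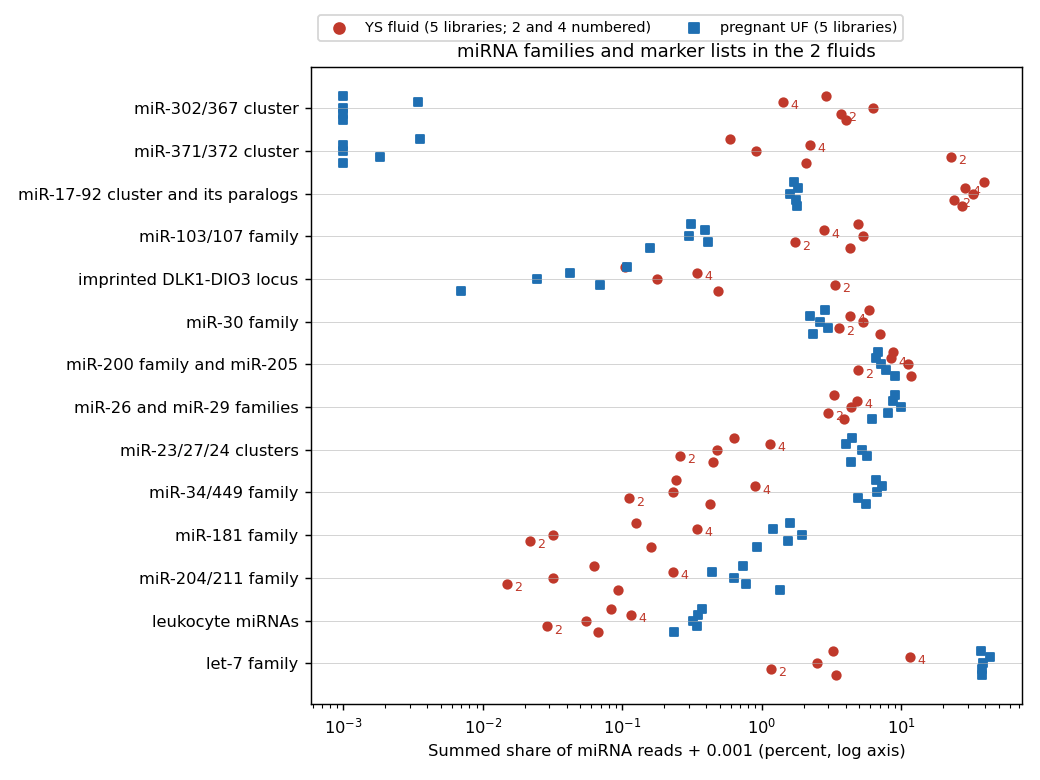
Summed share of miRNA reads (horizontal log axis, 0.001 percentage points added so that 0 can be drawn) for 14 families and marker lists, 1 point per library. Red circles are YS fluids, with libraries 2 and 4 numbered, and blue squares are pregnant UF. let-7 lies at 37.1% to 43.4% in UF and at 1.16% to 11.6% in YS fluid, and the miR-17-92 group shows the opposite order.

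Several other miRNAs were higher in YS fluid in each scaling. miR-122, the main miRNA of liver and a marker of endodermal derivatives, had 112, 82, 98, 18 and 57 reads in YS fluid and 1, 0, 0, 1 and 0 in UF, a log2 fold change of 8.62 ± 0.72 (edgeR FDR 1.02e-07). Of the other endoderm and liver miRNAs tested, miR-194 was 2.83-fold higher, a call lost with the mare as a block and in 6 of 10 fits without 1 library, and miR-192 was not called at 1.05 ± 0.58. Without YS fluid 4, which held 2 of its reads where the other YS fluids held 20 to 97, miR-192 was called at 1.35 and all 3 of the list were higher. miR-130b had 10, 26, 7, 3 and 14 reads in YS fluid and 1 or 2 in each UF, with a log2 fold change of 4.61 ± 0.63, whereas its relatives miR-130a and miR-301a were at -1.48 ± 0.62 and -0.85 ± 0.84 and turned to 0.16 and 0.77 with library totals alone. miR-130a was called lower with TMM, but this call was lost in 9 of 10 fits without 1 library, as without YS fluid 4 (-1.53). miR-103 and miR-107a, near-identical in sequence and in counts, had log2 fold changes of 2.01 ± 0.39 and 2.06 ± 0.39, and the family held 1.72% to 5.33% of YS fluid reads against 0.157% to 0.412% of UF reads. miR-103 is often used as a reference in fluids. In the group of such reference miRNAs it was the only one of 6 tested that was called with TMM. The median log2 fold change of the 6 was 0.28 with TMM and 2.05 with library totals alone. Their summed share, miR-103 included, was 4.78% to 9.01% of YS fluid reads and 1.51% to 1.94% of UF reads.

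let-7, a family that restrains proliferation and is held low in pluripotent cells, dominated UF. let-7a had 22067, 19582, 28968, 18390 and 13180 reads in UF 1 to 5 but 119, 90, 153, 239 and 242 in YS fluids 1 to 5. Its share of reads was 18.1% ± 2.51 in UF and 2.10% ± 1.94 in YS fluid (SD, n = 5 each), with a log2 fold change of -5.04 ± 0.44 (edgeR FDR 1.58e-07). All 7 members tested, miR-98 included, were lower in YS fluid in each scaling, against 18.8% of all miRNAs, with a median of -5.06. The family summed to 3.39%, 1.16%, 2.50%, 11.6% and 3.26% of reads in YS fluids 1 to 5, so YS fluid 4 stood highest, and to between 37.1% and 43.4% in UF. Without YS fluid 4 all 7 were again called and the median was -5.57.

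The miR-34/miR-449 family, which promotes the formation of motile cilia, was lower in YS fluid by an even wider margin. miR-449a had 16, 7, 12, 15 and 15 reads in YS fluid and 3560, 2892, 5004, 2879 and 2344 in UF, a log2 fold change of -6.18 ± 0.42. miR-34c had 10, 3, 7, 15 and 11 reads in YS fluid and 2292 to 4388 in UF, at -6.41 ± 0.54. No YS fluid reached the lowest UF share of either. All 6 members were called lower, 5 of them in each scaling, where 36.1% of all miRNAs were lower with TMM and 18.8% in each scaling, and their median was -5.99. The exception was miR-34a, a stress-induced member from another precursor, at -2.41 ± 0.55 with TMM and -0.69 with library totals alone. miR-34b-5p had a single read in YS fluid, in library 4, and 82 to 161 in UF, which makes its pooled share 53.7 times lower (exact 95% interval 9.60 to 2124). Without YS fluid 4 it had no read in YS fluid and was at least 16.5-fold lower.

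Further UF families followed the same order. The miR-23/miR-27/miR-24 clusters, widespread in epithelial and vascular cells, were lower in YS fluid for all 5 members in each scaling, from -5.81 ± 0.60 for miR-23a to -4.49 ± 0.40 for miR-24. Both members of the miR-181 family, known from lymphocytes, and both of the miR-204/miR-211 family, known from epithelia, were lower in each scaling, as were miR-26a, miR-29a and miR-29c. miR-26a remained abundant in both fluids, at 3.85% ± 0.721 of YS fluid and 8.23% ± 1.40 of UF reads (SD, n = 5 each), so that its log2 fold change was -2.88 ± 0.28 with TMM and -1.09 with library totals alone. miR-21, a growth-associated miRNA, was likewise high in both fluids, at 6.76% ± 0.712 and 11.6% ± 2.33 of reads. Its log2 fold change of -2.53 ± 0.30 was called with TMM and shrank to -0.77 with library totals alone. miR-31 was clearly separated at -5.25 ± 0.45. miR-10a, a miRNA of a HOX cluster, had 30, 24, 27, 69 and 57 reads in YS fluid and 11372, 3690, 3476, 1920 and 2992 in UF, a log2 fold change of -4.83 ± 0.58. Its near relative miR-10b was at 0.00 ± 0.52 with TMM and 1.83 with library totals alone.

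The share of these UF families in each YS fluid was also set against the UF of the same mare. YS fluid 4 held let-7 at 26.6% of the share in its own UF, and the 4 others at 3.07% to 8.97%. For the miR-34/miR-449 family the value was 12.4% in YS fluid 4 and 2.25% to 7.59% in the others, for miR-204/miR-211 it was 52.7% against 1.79% to 8.48%, and for the miR-23/miR-27/miR-24 clusters 28.6% against 4.52% to 14.2%. The gap was narrower for miR-181, at 28.5% in YS fluid 4 and 17.1% in YS fluid 1, and for leukocyte miRNAs, at 33.2% and 28.3%. Some of these values rest on few reads. A YS fluid held 2 to 10 reads of miR-204/miR-211, 3 to 18 of miR-181 and 4 to 12 of leukocyte miRNAs. For miR-26 and miR-29 YS fluid 1 was the highest at 62.7%, YS fluid 4 followed at 54.8%, and the lowest was YS fluid 5 at 37.0%. YS fluid 2 was the lowest for the other 6 groups. Whether UF entered YS fluid 4 during collection was not tested.

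The miR-200 family, made in epithelial cells and known for keeping the epithelial state, split within itself. It comprises miR-200b, miR-200c and miR-429, which share one seed, and miR-200a and miR-141, which share another. miR-200b was among the most abundant miRNAs of YS fluid, with 506, 384, 735, 187 and 651 reads there and 3556, 2852, 2728, 1278 and 1443 in UF. It was not called at -0.59 ± 0.30, and its sign turned with every other scaling, to 1.23 with library totals alone. miR-429 was not called either at -0.67 ± 0.37. miR-200c was called lower at -1.66 ± 0.30 with TMM but stood at 0.17 with library totals alone. miR-200a, from the same precursor as miR-200b, was 7.99-fold lower (log2 SE 0.38), and miR-141, from the precursor of miR-200c, at -4.69 ± 0.40. Both were called in each scaling. miR-205, an epithelial miRNA outside the family, had 1, 1, 0, 1 and 0 reads in YS fluid and 68, 160, 151, 203 and 148 in UF, so that its pooled share was 23.1 times lower in YS fluid (exact 95% interval 7.87 to 112).

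Ratios within a library do not depend on the scaling. The log2 ratio of miR-200a to miR-200b reads was -2.51 ± 0.48 in YS fluid and -0.01 ± 0.52 in pregnant UF (SD, n = 5 each). Individual values were -2.93, -2.17, -1.94, -3.06 and -2.43 in YS fluids 1 to 5, all below the lowest UF value of -0.84. In embryonic tissue the ratio was -1.70 ± 0.33, in pregnant endometrium -0.51 ± 0.31 and in the 4 cyclic UF 0.09 ± 0.16. The log2 ratio of miR-141 to miR-200c was -5.17 ± 0.50 in YS fluid and -2.21 ± 0.11 in UF, and here the YS fluids rest on 5 to 10 miR-141 reads each. The embryos ranged from -3.92 to 0.29 in this ratio, and none was as low as a YS fluid. By contrast, the ratio of miR-429 to miR-200b was -3.28 ± 0.42 in YS fluid and -3.09 ± 0.21 in UF, and these ranges overlapped. These ratios were chosen after the values were seen and are given without a test.

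**Figure D3:**
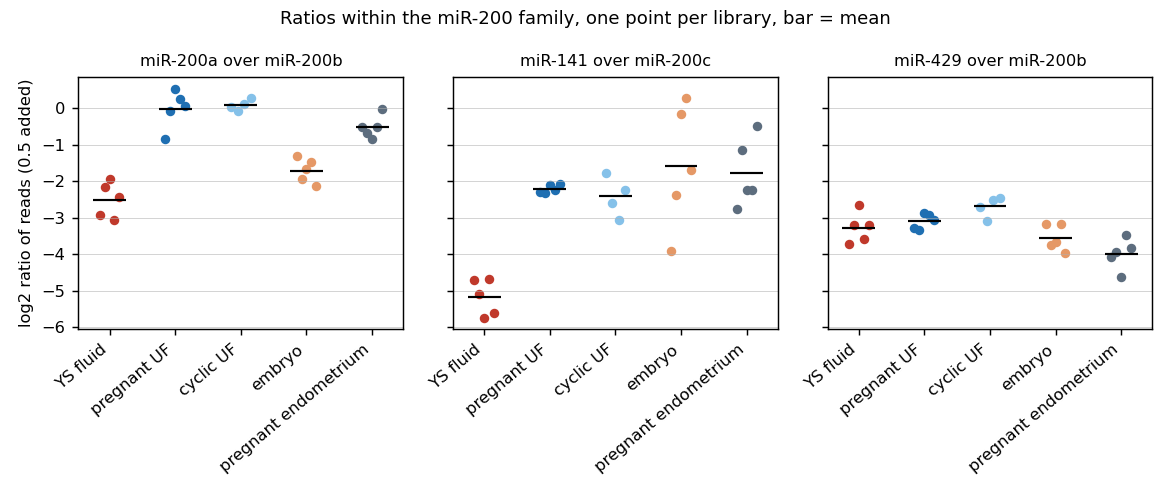
log2 ratios of reads (vertical axis, 0.5 added to each count) between members of the miR-200 family, 1 point per library and a bar at the group mean, for YS fluid, pregnant UF, cyclic UF, embryo and pregnant endometrium. miR-200a over miR-200b lies at -3.06 to -1.94 in YS fluid and at -0.84 to 0.54 in pregnant UF.

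Leukocyte miRNAs were low in YS fluid. Among them, miR-142-3p, miR-142-5p, miR-146a, miR-150 and miR-223 had no read in any YS fluid. miR-146a had 54, 42, 29, 55 and 48 reads in UF and was at least 7.21-fold lower in YS fluid on library totals, and miR-142-5p and miR-150 were at least 3.45-fold and 3.10-fold lower. miR-155 was read in every YS fluid, with 4, 2, 6, 4 and 9 reads, and was lower at -3.79 ± 0.44. All 7 leukocyte miRNAs tested were called lower and 5 in each scaling, against 36.1% and 18.8% of all miRNAs. Members without a YS fluid read passed the filter only through UF and could not have come out higher. The counts are therefore no independent support. The median of the 7 was -5.64 (-3.35 with members at 0 set to their bound). The summed share of leukocyte miRNAs was 0.0277% to 0.115% in YS fluid and 0.233% to 0.373% in UF.

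Other lineages gave weaker differences with TMM, and the summed shares of the erythroid and the mesenchymal list overlapped between the fluids. Erythroid miRNAs held 0.0230% to 0.138% of YS fluid reads and 0.0519% to 0.325% of UF reads, and those of smooth muscle and mesenchyme 0.0623% to 0.689% and 0.0364% to 0.807%. Of the erythroid miRNAs, miR-451 had 1, 2, 1, 3 and 0 reads in YS fluid and was not called at -1.52 ± 0.90, while miR-486-5p was 8.02-fold lower with TMM. Of 3 tested, 2 were lower with TMM, 1 without YS fluid 2 or without YS fluid 4, and none in each scaling. The second of these calls was miR-486-3p, with 0 reads in YS fluid and 9 in UF. It was lost in 9 of 10 fits without 1 library. miR-143 and miR-199a-3p, of smooth muscle and mesenchyme, were lower with TMM at -2.14 ± 0.70 and -3.13 ± 0.75, but no member of that list was called in each scaling (3 of 3 tested were lower with TMM, 4 of 6 without YS fluid 2), and miR-143 was no longer called without YS fluid 1 or without YS fluid 3. For the endothelial miR-126-3p, with 1 to 3 reads in each YS fluid, the log2 fold change of -0.08 ± 0.79 had a 95% interval of -1.63 to 1.46 and turned positive with every other scaling. None of the 3 members of the miR-183/miR-96/miR-182 cluster, known from sensory and other epithelia, was called with TMM. Their median log2 fold change was 0.42 with TMM and 2.23 with library totals alone. The cluster held 0.582% to 1.46% of YS fluid reads and 0.145% to 0.335% of UF reads.

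A number of abundant miRNAs could not be told apart between fluids on the TMM scale. miR-16 had 239, 239, 432, 71 and 252 reads in YS fluid and a log2 fold change of 0.23, with a 95% interval of -0.40 to 0.85. The intervals were -0.55 to 0.68 for miR-30c, -0.25 to 1.10 for miR-182 and -0.24 to 1.23 for miR-423-5p. These intervals hold for TMM alone, since with library totals alone the same miRNAs stood at 2.01, 1.83, 2.23 and 2.24. Of the 4 members of the miR-30 family tested, 1 was lower with TMM, miR-30e at -1.86 ± 0.36, and none in each scaling. Of the miR-148/miR-152 family 1 of 3 was lower with TMM and none in each scaling, and of the miR-15/miR-16 family 2 of 4 and 1 (1 of 5 with TMM without YS fluid 4). In the miR-10, miR-99 and miR-125 group 5 of 8 were lower with TMM and 1 in each scaling, which was miR-10a, and 4 were lower with TMM without YS fluid 2 or without YS fluid 4. The miRNAs of other imprinted loci, miR-335 and miR-483, had at most 3 reads in a YS fluid and were not called, but without YS fluid 2 miR-335 was called lower at -2.15. Of miR-21, miR-22, miR-31 and miR-34a, grouped as miRNAs of stress and growth, 3 were lower with TMM and miR-31 in each scaling. Summed shares of reads were higher in YS fluid than in UF for miR-30, at 3.55% to 7.01% against 2.22% to 2.98%. So they were for miR-148/miR-152, at 1.29% to 1.92% against 0.190% to 0.544%, and for miR-15/miR-16, at 1.63% to 3.38% against 0.493% to 0.686%. The stress and growth group went the other way, at 7.29% to 8.46% against 9.75% to 16.1%. So did the miR-10, miR-99 and miR-125 group, with medians of 0.929% and 3.40%.

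The miRNAs of the imprinted DLK1-DIO3 locus, a large cluster expressed from the maternal chromosome, showed a difference carried by 1 library. Their summed share of reads was 0.488%, 3.36%, 0.176%, 0.345% and 0.103% in YS fluids 1 to 5 and 0.00594% to 0.106% in UF. miR-432 had 10, 105, 6, 4 and 2 reads in YS fluid and 2, 9, 5, 3 and 6 in UF. miR-409-3p had 3, 67, 2, 2 and 3 reads in YS fluid, and miR-380 had 3, 69, 2, 1 and 0. YS fluid 2 held most reads of all 3. Of 11 members tested, 7 were higher in YS fluid in each scaling and 4 were not called, with a median of 2.92. Without YS fluid 2, 3 of 12 tested were higher and the median was 0.16. miR-432 was then at 1.89 (edgeR FDR 0.0274) instead of 3.97 ± 0.97, while miR-409-3p went from 2.92 ± 0.98 to 0.37 and miR-380 from 5.06 ± 1.34 to 1.88, and neither was called. With the mare as a block, miR-409-3p was at 1.60 and not called.

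**Figure D4:**
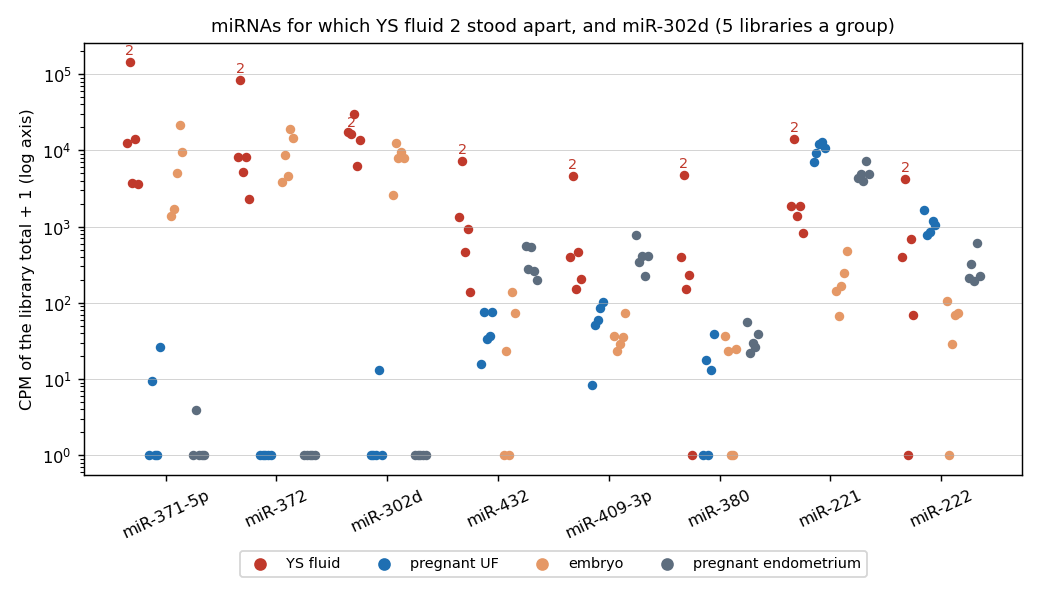
Level of 8 miRNAs (CPM of the library total, 1 added, vertical log axis) in the 5 libraries each of YS fluid, pregnant UF, embryo and pregnant endometrium. YS fluid 2 (numbered) has the highest YS fluid value of the miRNAs shown except miR-302d, and for miR-432, miR-409-3p and miR-380 it lies above every embryo and endometrium.

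miR-221 and miR-222, a pair that acts on the cell cycle, moved in YS fluid 2 as well. miR-221 had 14, 204, 18, 8 and 12 reads in YS fluids 1 to 5 and 839 to 1840 in UF, and miR-222 had 3, 61, 0, 3 and 1 against 84 to 223. With all libraries miR-221 was called lower at -2.79 ± 0.75 and miR-222 was not called at -1.43 ± 0.90. Without YS fluid 2 both were called lower, at -4.73 and -4.27. With the mare as a block miR-222 was called lower at -3.14.

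The profile of YS fluid was spread over more miRNAs than that of UF. With each library thinned to 4352 reads, 177 ± 6.15 miRNAs were detected in YS fluid and 128 ± 11.3 in UF (SD, n = 5 each, two-sided exact permutation p = 0.00794, the smallest this design allows). Values were 185, 181, 175, 173 and 169 in YS fluids 1 to 5 against 119 to 146 in UF, with no overlap. The 10 most abundant miRNAs took 58.8% ± 3.38 of YS fluid reads and 70.3% ± 1.34 of UF reads, and the Shannon entropy was 5.14 ± 0.20 and 4.61 ± 0.08 (exact permutation p = 0.00794 for each). At their own depth the order of detection was reversed, with 230 miRNAs on average in YS fluid and 292 in UF. With the mare as pair, the exact sign-flip test of each measure gave p = 0.0625, the smallest that 5 pairs allow. Among known miRNAs only, the difference in miRNAs detected at equal depth was 28.3 instead of 48.3 (exact permutation p = 0.00794). That in entropy was 0.37 instead of 0.52 (exact permutation p = 0.0159). How far predicted entries with identical counts widen these differences was not tested.

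The 2 arms of a hairpin can be kept at different ratios, and 4 hairpins of the 48 with both arms in the known table had at least 10 reads of both arms together in every library. For miR-148b the log2 ratio of the 5p to the 3p arm was -6.10 ± 1.17 in YS fluid and -3.91 ± 1.01 in UF (exact permutation p = 0.0317, 0.127 after Benjamini-Hochberg adjustment over 4 hairpins). miR-148b-5p had only 1, 1, 0, 0 and 0 reads in YS fluids 1 to 5, so the size of the ratio there depends on the pseudocount of 0.5, and the difference of -2.19 became -3.67 with one of 0.1 (exact permutation, adjusted p = 0.0317). miR-28, miR-423 and miR-532 differed by -0.72, 0.48 and 0.20 (exact permutation p = 0.190, 0.325 and 0.770).

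The fluid difference was next set beside the difference between the tissues that border each fluid, embryo and pregnant endometrium, in libraries that the fluid comparison did not use. There 256 of 359 miRNAs (71.3%) were called. Over the 267 miRNAs tested in both, the log2 fold changes had a Pearson's r of 0.72 and a Spearman's rho of 0.67, a description across miRNAs that share libraries and scaling and are not independent. Of 61 miRNAs higher in YS fluid, 36 were higher in embryo, which is 59.0% of this list and 52.2% of the 69 that were higher in embryo. Of 99 lower in YS fluid, 74 were lower in embryo, which is 74.7% of this list and 63.2% of the 117 that were lower in embryo. In the tissue comparison as a whole, 28.7% were higher and 42.6% lower. The 4 members of the miR-302/miR-367 cluster tested, all 7 of let-7, all 6 of miR-34/miR-449 and all 7 leukocyte miRNAs were called in the same direction in the tissues as in the fluids. miR-92a was an exception with TMM, since it was not called between embryo and endometrium at 0.62 on the log2 scale, and so was miR-103 at 0.26. In plain CPM both were higher in embryo, the direction seen in the fluids. miR-92a had 13507 to 28886 CPM in embryo and 3490 to 7313 in endometrium, and miR-103 had 3618 to 11255 and 1705 to 2410.

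**Figure D5:**
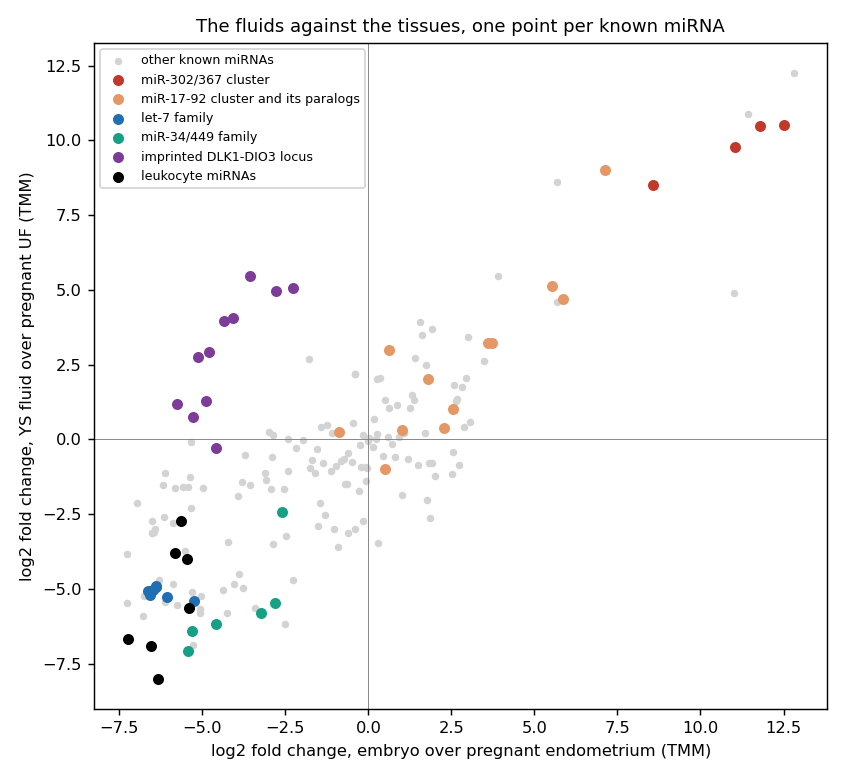
log2 fold change of YS fluid over pregnant UF (vertical axis) against that of embryo over pregnant endometrium (horizontal axis), both on the TMM scale, 1 point for each of 193 known miRNAs tested in both. The miR-302/miR-367 members lie at the upper right, let-7, miR-34/miR-449 and leukocyte miRNAs at the lower left, and most members of the DLK1-DIO3 locus at the upper left, of which 7 of 11 were called higher in YS fluid with all libraries and 3 of 12 without YS fluid 2.

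The fluid difference departed from the tissue difference for 134 of 400 miRNAs (33.5%) in a test of the interaction by edgeR, with 75 more positive (18.8%) in the fluids. Members of the DLK1-DIO3 locus showed the most positive values with all libraries among known miRNAs with a group mean of 1000 CPM or more. None of 29 members was higher in embryo than in endometrium and 24 were lower. miR-432 was at 3.97 in the fluids and -4.36 in the tissues, an interaction of 8.49 ± 1.41 (FDR 0.000251). For miR-409-3p the interaction was 7.88 ± 1.32 and for miR-380 it was 7.55 ± 1.74. Without YS fluid 2 the 3 interactions were 6.31, 5.17 and 4.20, and each was called. miR-143 at 5.22 then stood above miR-409-3p, and miR-126-3p at 5.06 and miR-451 at 4.61 above miR-380. The YS fluid mean of each of the 3 also passed 1000 CPM only with YS fluid 2 and was 709, 304 and 195 CPM without it. At the other end, miR-22, a miRNA of muscle and many other tissues, had 268, 1119, 2069, 1456 and 1342 reads in embryos 1 to 5 but was not called higher in YS fluid, at 2.73 in the tissues and -0.87 in the fluids, an interaction of -3.43 ± 0.57 (edgeR FDR 0.000251). For miR-205 it was -3.60 ± 1.28. miR-767-5p had 18 reads in YS fluid and 1 in UF, but 544 in embryo and 0 in endometrium, at least 1860-fold higher on library totals, so that its fitted interaction of -5.19 ± 1.60 depends on how the fit treats a group at 0 and is no bound. The call of miR-205 was lost with library totals alone and in 10 of 20 fits without 1 library, and that of miR-767-5p in 2 of 20. Without UF 5 the count of 134 was 87.

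No genomic cluster held members called in opposite directions, although the sign of the fold change differed within some. Of the 196 known miRNAs tested, 191 were matched by name to the RefSeq genes of the horse, and 28 groups of neighbours within 10000 bases had at least 2 tested members. In 4 of these groups all members were called higher in YS fluid and in 8 all were called lower. In 7 groups the lowest and the highest log2 fold change had opposite signs, as for miR-15a, called lower at -3.59, and miR-16 at 0.23. Since miR-16 is also encoded beside miR-15b, its reads cannot be assigned to the miR-15a locus alone. A miRNA encoded in several groups, such as miR-24 or miR-92a, was counted in each of them. All 7 tested miRNAs of the group from miR-188 to miR-660 were not called, with log2 fold changes from -2.01 to -0.16.

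Predicted miRNAs took 4.02% to 6.31% of YS fluid reads and 1.42% to 2.05% of UF reads. These shares sum every entry, so reads of entries with identical counts may enter more than once. Of 81 tested, 23 were higher in YS fluid and 28 lower with TMM, where 23.5% and 36.1% of all miRNAs were higher and lower. Many predicted entries had identical counts. In a fit with these counted once, 20 of 42 were higher and 10 lower, so the balance of the 2 directions depends on the copies. Of all 238 miRNAs in that fit, 64 were higher and 77 lower. Among those higher, pred-miR-64 had 21, 8, 4, 10 and 6 reads in YS fluid and 1 read in UF, with a log2 fold change of 6.55 ± 0.90, and pred-miR-51 stood at 5.58 ± 0.89. pred-miR-115, at 5.45 ± 1.27, had 34 of its YS fluid reads in library 2 and 1 or 2 in the others, and was at 2.92 without that library. Among those lower, 7 predicted entries with identical counts, pred-miR-76 and 6 others, had 8, 27, 22, 5 and 21 reads in UF and none in YS fluid, at least 2.62-fold lower on library totals. pred-miR-126, listed in 2 entries, had 143 reads in UF and 1 in YS fluid. pred-miR-70 had 31 and 0 reads, too few at this depth for a bound on the fold.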

How the data were processed

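Small RNA of the 28 samples was sequenced, and the 5 YS fluids and 5 pregnant UF were compared, with 5 embryos and 5 pregnant endometria as the tissue comparison. The authors trimmed adapters with cutadapt 1.11, removed reads under 17 bases, of quality under 20 or with ambiguous bases, and counted reads on horse miRNAs of miRBase release 22 and on predicted miRNAs with miRPro on EquCab2.0. The deposited counts are raw read counts per miRNA, without normalization. A table of predicted precursors equalled that of the predicted miRNAs in 154 of 154 entries and adds no measurement. How reads matching several miRNAs were assigned is not given in the sources used here, so near-identical miRNAs are uncertain.

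Known and predicted miRNAs were fitted together with edgeR 4.0.16 in R 4.3.3: at least 1 CPM in 5 libraries, TMM factors, quasi-likelihood test, Benjamini-Hochberg adjustment, FDR of 0.05 and fold change of 2. The thresholds follow the study's methods. Embryo and pregnant endometrium were fitted in the same way, and the interaction over 20 libraries. Alternatives were the likelihood ratio test, DESeq2 1.42.0, other factors and filters, thinning to 4352 reads, leaving out each library and the mare as a block. Library totals alone, and calls in each of 5 scalings without YS fluid 2, without YS fluid 4 or with the block, were added after the data were seen. Detection, concentration and entropy were means of 100 thinnings (Python 3.11.15, numpy 2.4.6, scipy 1.17.1), compared by exact permutation tests. Confidence intervals of pooled read ratios are exact at 95%. The fitting procedure was checked on simulated counts with known changes.

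Named were in each direction the 10 known miRNAs that differed most, with at least 1000 CPM in the higher fluid and no overlap, the 5 most abundant of each fluid, the 3 most abundant measured members of each of 27 families and marker lists, the 3 largest interactions in each direction, the hairpins with arms tested and the 3 largest predicted profiles in each direction. Other members of a family or locus are named to complete its account, after their values were seen. The samples compared, the lists and the rule were chosen with earlier results of these data known. No mature sequences were used here.

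Samples with one number come from 1 mare, since YS fluid was taken from the embryo flushed from the uterus that gave the UF. Deviations from the group means correlated at 0.04 on average within a mare and at -0.01 between mares (pairs 0.20, -0.06, 0.07, -0.03 and 0.01). The blocked fit is given where it moves a result.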

Additional observations from a re-analysis of the deposited data

Results flagged for a closer look

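For the named miRNAs and the composition measures, the highest or lowest of the 5 libraries of a fluid was checked for a gap to the next library that is wide for its group. Of 173 such groups, 35 (20.2%) were flagged. The rule flags about 1 in 20 groups by chance only where values are normally distributed and groups are independent. Neither holds here, since a lone read in a group otherwise at 0 is always flagged and related miRNAs move together in a library. The 20.2% is therefore no measure of an excess over chance. YS fluid 4 stood out in 12 and YS fluid 2 in 8, and the 5 UF libraries in 13 together. All were high values.

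In YS fluid 2 the values were 84400 CPM for miR-372, 142857 for miR-371-5p, 14113 for miR-221, 4220 for miR-222, 7264 for miR-432, 4635 for miR-409-3p, 4773 for miR-380 and 2352 for pred-miR-115. Each was above the other 4 YS fluids. In YS fluid 4, the shallowest, the values were those of let-7a at 54917 CPM, let-7c at 36535, let-7f at 11719, miR-98 at 1149, miR-10a at 15855, miR-10b at 13787, miR-27b at 5744, miR-143 at 3906, miR-34b-3p at 1838 and miR-451 at 689, with miR-34b-5p and miR-29c at 230 CPM each, which is 1 read. In YS fluids 3 and 5 single reads of pred-miR-126 (76.5 CPM) and miR-211 (68.8 CPM) stood alone.

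In UF 1 the values were 38446 CPM for miR-200c, 10576 for miR-34b-3p, 84403 for miR-10a and 1781 for miR-125a-5p. In UF 5, miR-126-3p stood at 189 CPM, miR-486-5p at 2804 and miR-451 at 429.4. The remaining UF values were 1 or 2 reads in a group otherwise at 0: miR-302d, miR-302a and pred-miR-51 at 12.1 CPM in UF 4, miR-767-5p at 12.6 in UF 5, pred-miR-64 at 6.54 in UF 3 and pred-miR-115 at 16.7 in UF 2.

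The fluid and tissue differences departed from each other, by the interaction test of edgeR, for 134 miRNAs. The log2 values of the named ones were 8.49 for miR-432, 7.88 for miR-409-3p, 7.55 for miR-380, -5.19 for miR-767-5p, -3.60 for miR-205 and -3.43 for miR-22.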

How the results depend on the processing

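The direction of the difference was unchanged for the 64 named and called miRNAs in all but 4 of 1434 combinations with an alternative, the 4 being miR-125a-5p, miR-130a and miR-200c below, and 47 of the 64 were called under each alternative that could test them. DESeq2 gave no adjusted p for 6 results, which are left out. YS fluid depth is a limit, since the stricter filter and thinning to 4352 reads tested fewer miRNAs, 124 and 138 of 277. The cause of other changes was not tested.

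The count of 165 was 90 with filterByExpr and 82 after thinning. The 65 higher were 114 with library totals alone, and the 100 lower were 52 with library totals alone, 45 with filterByExpr, 61 with known miRNAs only (72 of the 100 were known) and 36 after thinning. Leaving out 1 library gave 57 to 78 higher and 86 to 103 lower. For the tissues, 256 calls became 140 with filterByExpr, the 103 higher 60 with filterByExpr and 63 with known miRNAs only (56 of the 103 were known), and the 153 lower 94 with library totals alone and 80 with both filterByExpr and thinning. The 134 interactions were 72 with filterByExpr, 84 with known miRNAs only (also 84 of the 134 were known), 21 after thinning and 87 (without UF 5) to 126 without 1 library. The 75 more positive were 37 with filterByExpr and 14 after thinning, and 55 to 73 without 1 library. The 59 more negative were 38 with DESeq2, 35 with filterByExpr, 34 with known miRNAs only (23 of the 59 were known), 32 with identical predicted miRNAs counted once, 7 after thinning and 23 to 62 without 1 library, the lowest without UF 5.

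With the mare as replicate block, 138 miRNAs were called, 50 higher and 88 lower, and in each scaling 50 higher and 51 lower. Calls of miR-194 (1.36), miR-409-3p (1.60) and miR-486-3p (-3.28) were lost, miR-222 was called lower (-3.14), miR-126-3p turned to 0.26 and the more negative interactions fell to 26, while no other call of a named miRNA changed. The sign-flip tests paired by mare left the differences of 48.3 detected miRNAs, -11.5 percentage points and 0.52 in entropy above 0.05 at p = 0.0625, the exact minimum. The difference in miRNAs detected at equal depth turned to -62.6 with each library at its own depth. The arm ratio of miR-148b differed by -3.67 with a pseudocount of 0.1, and that of miR-532 by -0.18 to 0.67 without 1 library.

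Signs turned mostly for miRNAs with a small difference. With library totals alone the log2 fold changes were 1.12 for miR-107b, 0.14 for miR-125a-5p, 1.56 for miR-126-3p, 0.035 for miR-126-5p, 0.16 for miR-130a, 1.17 for miR-15b, 1.23 for miR-200b, 0.17 for miR-200c, 0.85 for miR-22, 0.040 for miR-222, 0.77 for miR-301a, 1.04 for miR-30d, 0.37 for miR-335, 0.16 for miR-451 and 0.80 for miR-96. With DESeq2, RLE and upper quartile factors they were 0.021, 0.024 and 0.23 for miR-107b, 0.63, 0.62 and 0.73 for miR-126-3p, 0.17, 0.14 and 0.30 for miR-15b, and 0.17, 0.17 and 0.31 for miR-200b, and miR-30d was at 0.15 with upper quartile factors. With filterByExpr they were 0.19 for miR-107b, 0.32 for miR-200b and 0.14 for miR-30d. After thinning they were 1.27 for miR-107b, 0.10 for miR-125a-5p, 0.91 for miR-15b, 1.01 for miR-200b, 0.70 for miR-22 and 0.86 for miR-30d. miR-126-3p was at 0.082 with identical predicted miRNAs counted once and at 0.40 with known miRNAs only. Without 1 library, miR-126-3p ranged from -0.31 to 0.85, miR-30c from -0.0059 to 0.32, miR-483 from -0.27 to 1.22 and miR-10b from -0.30 to 0.47.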
